A study of Mus musculus with 6 samples.

Results

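The genes described here are 9 members of the glycolytic and hypoxia response, Hif1a, Slc2a1, Aldoa, Gapdh, Pgk1, Eno1, Pkm, Ldha and Vegfa, out of 19361 genes listed in the count tables of the series. They were taken by name, and all 9 were listed in at least 1 library. Their levels were read in 4 classes of cell barcodes: microglia, infiltrating macrophages, Rhox5-positive barcodes and the other barcodes.

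Glycolysis splits glucose into pyruvate in the cytosol and yields ATP without oxygen. Slc2a1 encodes the glucose transporter GLUT1, the main route of glucose across the endothelium of the blood-brain barrier. Aldoa encodes an aldolase, which splits the phosphorylated hexose, and Gapdh the dehydrogenase of the next oxidative step. Pgk1 encodes phosphoglycerate kinase, an ATP-forming step, Eno1 an enolase, and Pkm the pyruvate kinase that makes pyruvate. Ldha encodes the lactate dehydrogenase subunit that favours lactate. Hif1a encodes the oxygen-regulated subunit of the transcription factor HIF-1, which is controlled largely at the protein level. Many glycolytic genes and Vegfa, which encodes a secreted growth factor for blood vessels, are known HIF-1 targets.

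Brain cells of female C57BL/6 mice, 2 to 3 months old and enriched for Cd11b, were profiled by Drop-seq. This droplet method tags the 3′ ends of transcripts by cell (the barcode) and by molecule (the unique molecular identifier, UMI). The metastasis group had E0771 mammary carcinoma cells, a mouse line, injected into the heart 2 to 3 weeks earlier, and gave 2 libraries of 1 brain each. Metastases seeded the same way were present in Cx3cr1-/- mice (null) and Cx3cr1+/- mice (heterozygous), with 1 library of 2 pooled brains for each genotype. The naive group had no metastases and 2 libraries of 1 brain each. Replicate 1 of both unmodified groups was sequenced on a HiSeq instrument and all other libraries on a NextSeq, so the replicate number also marks the sequencer. Every library held 1000 barcodes, with 491621 to 2667099 UMIs, and barcodes with at least 400 genes and under 10% mitochondrial UMIs were kept, leaving out likely doublets. This left 940 barcodes in metastasis 1, 76 in metastasis 2, 152 in the null library, 238 in the heterozygous library, 399 in naive 1 and 171 in naive 2. Cx3cr1 itself stood at 49.2 CPM (UMI counts scaled to a common library total) in microglia of the null library and at 1138 CPM in those of the heterozygous library, and between 847 and 4268 CPM in the libraries of unmodified mice.

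The labels of replicate 2 went against the carcinoma and macrophage markers. Rhox5, a homeobox gene used here as the mark of carcinoma cells, had 1340 UMIs in the library labelled metastasis 1 and 0 in the library labelled naive 1. In replicate 2 it had 0 UMIs in the library labelled metastasis 2 and 27 UMIs in the library labelled naive 2. At the rate of the library labelled naive 2, the smaller library labelled metastasis 2 would have given 8.18 UMIs. Spp1, an osteopontin gene of recruited macrophages, had 0 UMIs in the library labelled metastasis 2, where 92.1 would have been given at that rate, and 304 UMIs in the library labelled naive 2. In all 4 libraries of unmodified mice, the name of the table contradicts the label. The labels were followed, the libraries are called by their labels, and under the table names every difference between metastasis and naive below would have the opposite sign. If the labels were wrong in replicate 2 alone, only the differences within replicate 2 would have it, and the test across the 4 libraries would not hold. Between libraries, no pair had more than 1 barcode in common.

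Classes were set by marker UMIs. Microglia needed at least 3 UMIs of 8 microglial genes such as P2ry12, Tmem119 and Sall1, infiltrating macrophages at least 3 of Ms4a7 and Spp1, and Rhox5-positive barcodes at least 3 of Rhox5, each with the most UMIs in its own set. The kept barcodes gave 78 Rhox5-positive barcodes, all in the library labelled metastasis 1, and 141 macrophages, 124 of them in that library. The other barcodes numbered 617, 547 of them in that library, and microglia numbered 1140 over all 6 libraries. In the library labelled metastasis 1, Rhox5-positive barcodes carried 976 CPM of 7 further carcinoma genes, among which Krt19 was at 0, against 159 CPM in macrophages, 294 CPM in the other barcodes and 187 CPM in microglia. Macrophages carried 9703 CPM of 9 further macrophage genes such as Lyz2, Fn1 and Arg1, against 4548 CPM in microglia. Rhox5-positive barcodes carried 4934 CPM of these, with Arg1 at 0. Microglia carried 2350 CPM of the 8 microglial genes there, against 5638 to 9846 CPM in microglia of the other 5 libraries, so the class held less of its own markers in the library labelled metastasis 1 than elsewhere. Rhox5 was also read at 217 CPM in macrophages, 295 CPM in the other barcodes and 241 CPM in microglia of that library, against 1120 CPM in the Rhox5-positive class. Its part in the member levels of those classes was not tested.

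Promoters are shown for 3 members that behaved differently below: Ldha and Pgk1, which were highest in Rhox5-positive barcodes, and Slc2a1, which was highest in barcodes with endothelial markers. They run from 250 bases before to 50 after the start site, 5′ to 3′ on the gene's strand (RefSeq, GRCm38.p6), with the core letters bound by HIF, ACGTG and GCGTG on either strand, in capitals. The palindrome CACGTG holds ACGTG on both strands and counts as 2 matches.
Ldha, chr7:46845554-46845853, plus strand: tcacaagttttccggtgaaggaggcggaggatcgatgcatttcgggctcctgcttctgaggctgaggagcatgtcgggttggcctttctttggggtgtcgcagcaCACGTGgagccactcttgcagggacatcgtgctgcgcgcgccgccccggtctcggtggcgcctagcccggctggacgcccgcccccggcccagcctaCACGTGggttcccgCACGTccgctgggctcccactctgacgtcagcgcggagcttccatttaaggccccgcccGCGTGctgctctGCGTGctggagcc
Pgk1, chrX:106186850-106187149, plus strand: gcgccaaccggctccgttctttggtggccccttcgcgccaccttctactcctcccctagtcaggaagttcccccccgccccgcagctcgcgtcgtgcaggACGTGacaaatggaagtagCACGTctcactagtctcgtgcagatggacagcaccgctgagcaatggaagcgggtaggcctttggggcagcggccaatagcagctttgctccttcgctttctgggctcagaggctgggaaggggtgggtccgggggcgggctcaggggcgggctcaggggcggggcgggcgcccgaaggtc
Slc2a1, chr4:119108495-119108794, plus strand: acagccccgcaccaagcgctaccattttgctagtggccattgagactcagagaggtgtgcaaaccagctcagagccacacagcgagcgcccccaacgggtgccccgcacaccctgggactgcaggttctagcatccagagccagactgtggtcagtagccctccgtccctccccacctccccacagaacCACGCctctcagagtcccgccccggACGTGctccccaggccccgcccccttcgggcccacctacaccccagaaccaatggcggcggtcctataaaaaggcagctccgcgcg
The Ldha start shown held 7 matches, that of Pgk1 2 and that of Slc2a1 2. Of 32851 promoters of this length in the table, 43.8% held at least 1 match and 20.6% held 2 or more. All 9 members had at least 1 annotated start with a match, while 1 of 3 Aldoa starts, 1 of 2 Pkm starts and 1 of 2 Vegfa starts had none. The percentages are per promoter and the member count is per gene over all its starts, so they are not like measures. The second Ldha start, not shown, held 2 matches. A match describes the letters alone, and says nothing of binding. In the GENCODE annotation of GRCm38, the genes lie at chr7:46841475-46855627 (Ldha), chrX:106187100-106203699 (Pgk1) and chr4:119108711-119137983 (Slc2a1), all on the plus strand.

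In the library labelled metastasis 1, the only one with all 4 classes in number, most glycolytic members were highest in Rhox5-positive barcodes and lowest in microglia. Levels are CPM of the summed UMIs of a class, with exact 95% Poisson intervals that cover counting error only, since each class comes from 1 library. Ldha stood at 777 CPM (714 to 845) in Rhox5-positive barcodes, 447 CPM (384 to 516) in macrophages, 488 CPM (444 to 536) in the other barcodes and 327 CPM (277 to 383) in microglia. Pkm stood at 592 CPM in Rhox5-positive barcodes, 473 CPM in macrophages, 422 CPM in the other barcodes and 327 CPM in microglia. Both genes thus had their lowest level in microglia, and the interval of the Rhox5-positive class overlapped neither that of the other barcodes nor that of microglia. Aldoa stood at 498 CPM in Rhox5-positive barcodes, 314 CPM in macrophages, 230 CPM in the other barcodes and 226 CPM in microglia. Eno1 stood at 460 CPM in Rhox5-positive barcodes, 273 CPM in macrophages, 235 CPM in the other barcodes and 163 CPM in microglia. Pgk1 had 113 UMIs and 159 CPM (131 to 191) in Rhox5-positive barcodes, against 62.8 CPM in macrophages, 80.4 CPM in the other barcodes and 36.5 CPM (21.3 to 58.5) in microglia. For Aldoa, Eno1 and Pgk1 alike, the Rhox5-positive interval lay above those of the other 3 classes.

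**Figure D1:**
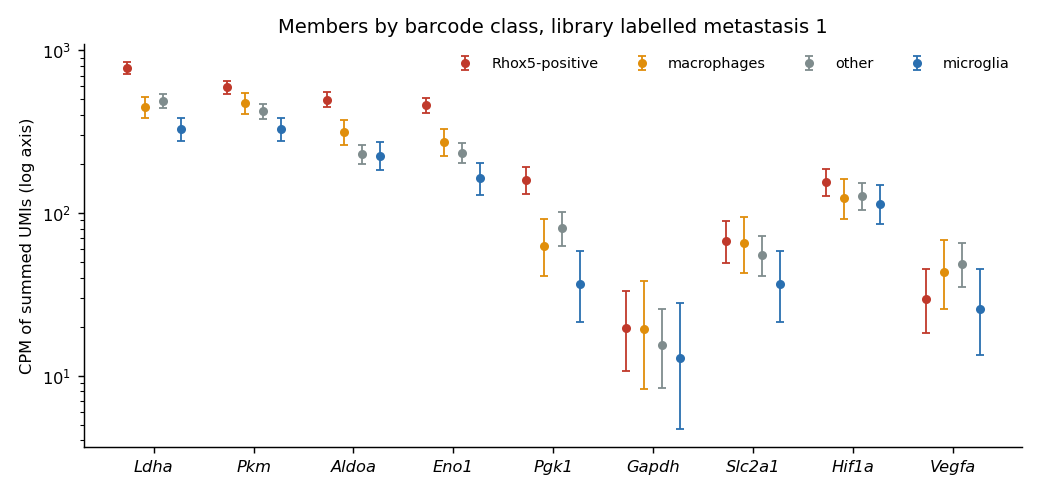
Level of each member, in CPM on a log axis, in the 4 barcode classes of the library labelled metastasis 1; points are CPM of the summed UMIs of a class and bars exact 95% Poisson intervals. Rhox5-positive barcodes lie above microglia for Ldha (777 against 327 CPM), Pkm, Aldoa, Eno1 and Pgk1, while the intervals of Slc2a1, Gapdh, Hif1a and Vegfa overlap between Rhox5-positive barcodes and microglia.

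Set against microglia of the same library, 6 of the 7 members with at least 50 UMIs over both classes had a counting interval above equality in Rhox5-positive barcodes. The background was large: of 4427 genes with that many UMIs, 39.0% had an interval above equality and 24.0% below it, and the median log2 ratio was 0.32, against 1.14 for the 7 members. Pgk1 had the highest log2 ratio at 2.12 (1.38 to 2.95), followed by Eno1 at 1.49 (1.13 to 1.87), Ldha at 1.25 (0.99 to 1.52) and Aldoa at 1.14 (0.82 to 1.47). Slc2a1 stood at 0.88 (0.06 to 1.77) and Pkm at 0.86 (0.59 to 1.14), and the interval of Hif1a, 0.45 (−0.03 to 0.95), held equality. Against macrophages of the library, 5 of 7 members had an interval above equality, where 38.5% of genes did, with Pgk1 at 1.34 (0.71 to 2.01), Ldha at 0.80 (0.56 to 1.05) and Slc2a1 at 0.05 (−0.66 to 0.78). Rhox5-positive barcodes held 28.5% of all UMIs of the kept barcodes of the library, but 49.3% of the Pgk1 UMIs, 44.9% of the Eno1 UMIs, 44.4% of the Aldoa UMIs and 41.5% of the Ldha UMIs. Their share of the Vegfa UMIs was 22.1%.

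Macrophages of the library differed less from its microglia. An interval above equality was found for 4 of the 5 members with at least 50 UMIs, where 13.9% of 3375 genes had one above and 15.2% one below. Eno1 stood at a log2 ratio of 0.74 (0.31 to 1.18), Pkm at 0.53 (0.22 to 0.85), Aldoa at 0.48 (0.09 to 0.86) and Ldha at 0.45 (0.13 to 0.77), and Hif1a at 0.11 (−0.47 to 0.69). The other barcodes had an interval above that of microglia for 4 of 8 members, where 13.4% of genes did: Pgk1 at 1.14 (0.36 to 1.99), Ldha at 0.58 (0.31 to 0.86), Eno1 at 0.52 (0.14 to 0.92) and Pkm at 0.37 (0.09 to 0.65). No member had an interval below equality in any of these class comparisons of the library. A stricter class rule asked for 4 marker UMIs and for no Ms4a7, Spp1 or Rhox5 UMIs in microglia. It asked for no Rhox5 UMIs in macrophages and no Ms4a7 or Spp1 UMIs in Rhox5-positive barcodes, but both classes could still hold microglial genes. With this rule, 4 members had at least 50 UMIs between macrophages and microglia, and Pkm alone had an interval above equality, at 1.03 (0.42 to 1.69). All 4 lay above 0, with a median log2 ratio of 0.56, against 0.48 for the 5 members before.

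Depth differed between the classes, with a median of 7435 UMIs per Rhox5-positive barcode, 2699.5 per macrophage, 1494 per other barcode and 1849 per microglia barcode. At a matched depth of 2000 or more and under 5000 UMIs, a range chosen after the data were seen, 14 Rhox5-positive barcodes, 76 macrophages, 97 other barcodes and 71 microglia barcodes were left. There Ldha kept an interval above equality between Rhox5-positive barcodes and microglia, at 0.88 (0.22 to 1.52), and so did Eno1, at 1.00 (0.05 to 1.88). Pkm at 0.50 (−0.35 to 1.29) and Aldoa at 0.52 (−0.47 to 1.41) did not. Between macrophages and microglia, Pkm at 0.86 (0.39 to 1.34) and Aldoa at 0.61 (0.06 to 1.18) kept an interval above equality, while Ldha lay at −0.02 (−0.50 to 0.45). The ratio of Eno1 lay above 0 there, but its interval held equality. The Ldha difference between macrophages and microglia was thus not seen at matched depth. Between Rhox5-positive barcodes and macrophages, Ldha stood at 0.91 (0.25 to 1.53), Aldoa at −0.10 (−1.04 to 0.73) and Pkm at −0.35 (−1.16 to 0.37).

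**Figure D2:**
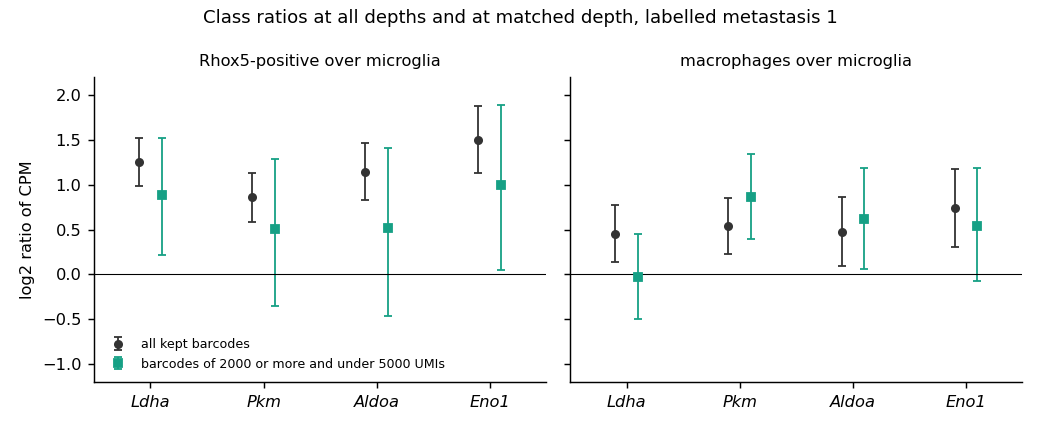
Log2 ratio of CPM for the 4 members with at least 50 UMIs at matched depth, in the library labelled metastasis 1; circles use all kept barcodes, squares those of 2000 or more and under 5000 UMIs, and bars are exact 95% intervals of counting error. Ldha stays above 0 for Rhox5-positive barcodes over microglia (0.88) and falls to −0.02 for macrophages over microglia.

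The share of barcodes with at least 1 Ldha UMI was 87.2% of Rhox5-positive barcodes, 64.5% of macrophages, 53.9% of the other barcodes and 52.9% of microglia in this library. After each barcode was thinned to 800 UMIs, the share was 44.9% of Rhox5-positive barcodes, 29.8% of macrophages, 32.8% of the other barcodes and 23.0% of microglia. For Pkm the thinned shares were 35.9% in Rhox5-positive barcodes, 33.9% in macrophages, 26.9% in the other barcodes and 24.1% in microglia. The 3 Rhox5-positive barcodes with the most Ldha UMIs held 19.0% of the Ldha UMIs of the class.

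Other genes of the pathway, from lists of 23 further glycolysis genes and 28 further names of hypoxia genes, lay on both sides of equality between the classes of this library. Between Rhox5-positive barcodes and microglia, 6 of 12 glycolysis genes with at least 50 UMIs had an interval above equality and 2 one below, with a median log2 ratio of 0.67. Of 14 hypoxia genes, 6 lay above and 3 below, with a median of 0.49. Mif, which encodes a cytokine that hypoxia can induce, stood at 2.12 (1.77 to 2.50), Ero1l, an oxidase of protein folding, at 1.83 (0.89 to 2.91), and Adm, which encodes the vasodilator adrenomedullin, at 1.74 (0.74 to 2.88). Lower levels were read for Ldhb, the lactate dehydrogenase subunit that favours pyruvate, at −3.80 (−5.07 to −2.75), for Pfkfb3, an activator of phosphofructokinase through its product, at −3.02 (−3.89 to −2.24), and for P4ha1, a collagen prolyl hydroxylase, at −1.47 (−2.21 to −0.77). Between macrophages and microglia, 1 of 8 glycolysis genes lay above and 2 below equality, with a median of −0.18. Hilpda and Plin2, which coat or regulate lipid droplets, lay above in macrophages, at 1.33 (0.79 to 1.90) and 0.82 (0.49 to 1.15), and Gpi1, glucose phosphate isomerase, at 0.69 (0.07 to 1.32). Ldhb lay below at −1.32 (−2.03 to −0.66), Kdm3a, a histone demethylase, at −1.08 (−1.93 to −0.27) and Pfkfb3 at −0.99 (−1.59 to −0.43).

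Within microglia, no member passed the test between metastasis and naive, and the libraries of each group lay far apart for Ldha, Pkm and Slc2a1. Ldha stood at 327 and 103 CPM in microglia of the libraries labelled metastasis 1 and 2, against 85.4 and 273 CPM in those labelled naive 1 and 2. Pkm stood at 327 and 123 CPM in the metastasis libraries, against 142 and 307 CPM in the naive libraries. For both genes, the library labelled metastasis 1 lay with the library labelled naive 2, and the library labelled metastasis 2 with that labelled naive 1. Eno1 stood at 163 and 71.0 CPM in the metastasis libraries, against 167 and 193 CPM in the naive libraries. Aldoa stood at 226 and 181 CPM in the metastasis libraries, against 248 and 336 CPM in the naive libraries, and was thus lower in both metastasis libraries. Hif1a stood at 114 and 51.7 CPM in the metastasis libraries, against 71.0 and 97.5 CPM in the naive libraries. Slc2a1 stood at 36.5 and 64.6 CPM in the metastasis libraries, against 19.7 and 125 CPM in the naive libraries. The levels of metastasis 2 rest on few UMIs in 70 barcodes: 16 of Ldha, 19 of Pkm, 11 of Eno1, 28 of Aldoa, 8 of Hif1a and 10 of Slc2a1. In CPM, the groups did not overlap for Aldoa and Eno1 and overlapped for the other 5 members tested. The counting intervals of metastasis 1 and naive 1 did overlap, for Eno1 (129 to 204 against 139 to 199 CPM) and for Aldoa (185 to 273 against 214 to 287 CPM). In naive 2, 28 of the 107 Eno1 UMIs lay in 1 of 141 microglia barcodes. Of 6842 genes tested, 28.4% had groups that did not overlap, and so did these 2 of 7 members. Of those genes, 824 lay lower in both metastasis libraries than in both naive libraries, as Aldoa and Eno1 did, and 1119 lay higher in both, as 0 members did. Pgk1 had 17 and 1 UMIs in the metastasis libraries, against 30 and 13 UMIs in the naive libraries, and Vegfa had 12 and 1, against 1 and 6.

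**Figure D3:**
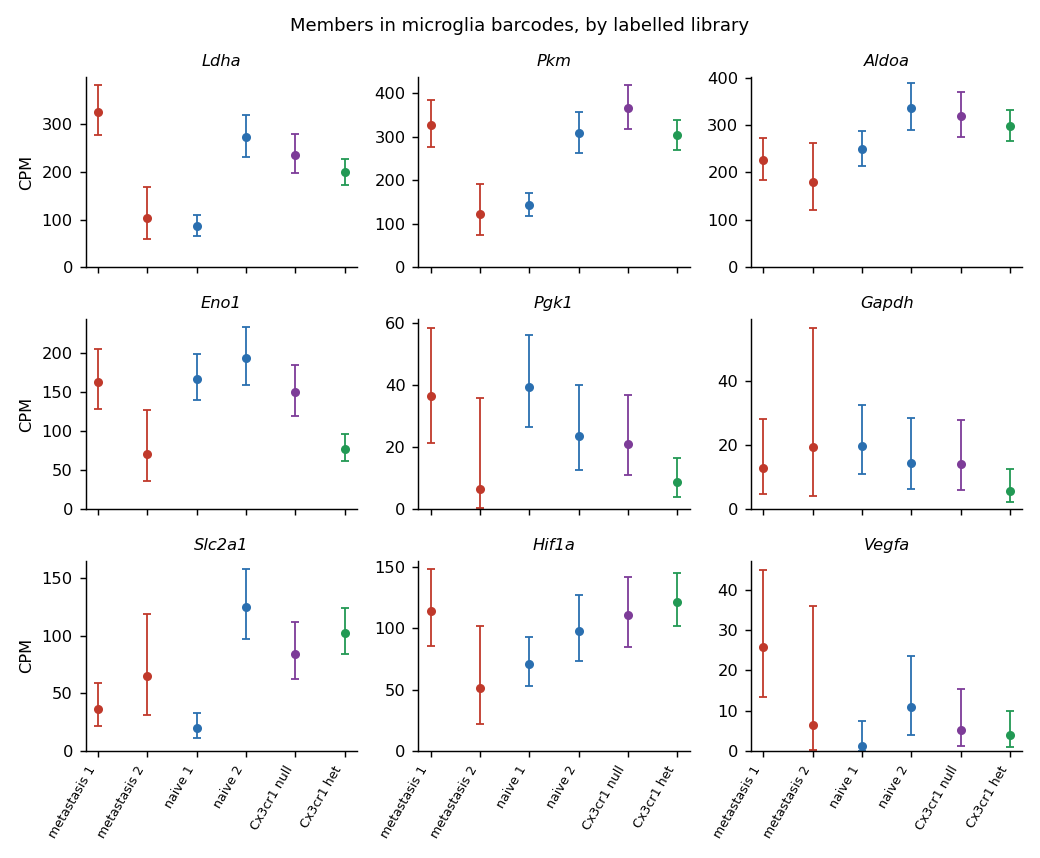
Level of each member, in CPM, in microglia barcodes of each labelled library; points are CPM of the summed UMIs and bars exact 95% Poisson intervals. For Ldha and Pkm the library labelled metastasis 1 (327 CPM each) lies near the library labelled naive 2, and that labelled metastasis 2 near naive 1.

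With the quasi-likelihood test of edgeR on summed counts, 0.00% of 6842 genes were called between metastasis and naive microglia at a Benjamini-Hochberg adjusted p under 0.05, and none of the 7 members tested. Unadjusted, 147 genes and 0 members had p under 0.05, and DESeq2 called 0 genes. The 7 members had a median log2 change of −0.48, against −0.01 for all genes tested. Aldoa had a log2 change of −0.61 (SE 0.43) and Eno1 of −0.68 (SE 0.50), each with an edgeR adjusted p of 0.999, and Ldha had 0.24 (SE 0.70). Gapdh and Vegfa did not pass the low-count filter. Of the further pathway genes, 0 of 18 glycolysis genes and 0 of 17 hypoxia genes were called, with 0 and 1 at an unadjusted p under 0.05. Over all kept barcodes, where class shares also differ, 0.00% of 7974 genes were called by edgeR (147 at an unadjusted p under 0.05) and 1 by DESeq2, and 0 of 9 members by either.

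Within replicate 1, sequenced on the HiSeq, 3 of 5 members with at least 50 UMIs had an interval above equality in metastasis 1 over naive 1 microglia, where 36.7% of 4090 genes had one above and 19.0% one below. Ldha stood at a log2 ratio of 1.93 (1.51 to 2.38), Pkm at 1.20 (0.84 to 1.57) and Hif1a at 0.68 (0.11 to 1.26). Aldoa at −0.14 (−0.50 to 0.21) and Eno1 at −0.03 (−0.46 to 0.39) held equality. Vegfa had 12 UMIs in metastasis 1 and 1 UMI in naive 1, a log2 ratio of 4.29 (1.54 to 9.71). Rhox5 was at 241 CPM in microglia of metastasis 1 and at 0 in those of naive 1, and the 9 further macrophage genes stood at 4548 CPM in metastasis 1 and 1273 CPM in naive 1. Their part in these ratios was not tested. Within replicate 2, sequenced on the NextSeq, 4 of 6 members had an interval below equality, where 15.6% of 2719 genes had one below and 16.8% one above, and every one of the 6 members lay below 0. Eno1 stood at −1.44 (−2.49 to −0.55), Ldha at −1.40 (−2.24 to −0.65), Pkm at −1.32 (−2.09 to −0.64) and Aldoa at −0.89 (−1.52 to −0.32). Of the 107 Eno1 UMIs in microglia of naive 2, 28 lay in 1 barcode. Ldha and Pkm thus had intervals on opposite sides of equality in the 2 replicates, as labelled. Leaving out the library labelled metastasis 2, whose markers went against its label, edgeR called no member and 0 of 8178 genes (1069 at an unadjusted p under 0.05). Without the library labelled naive 2, none of the members and 21 genes were called.

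**Figure D4:**
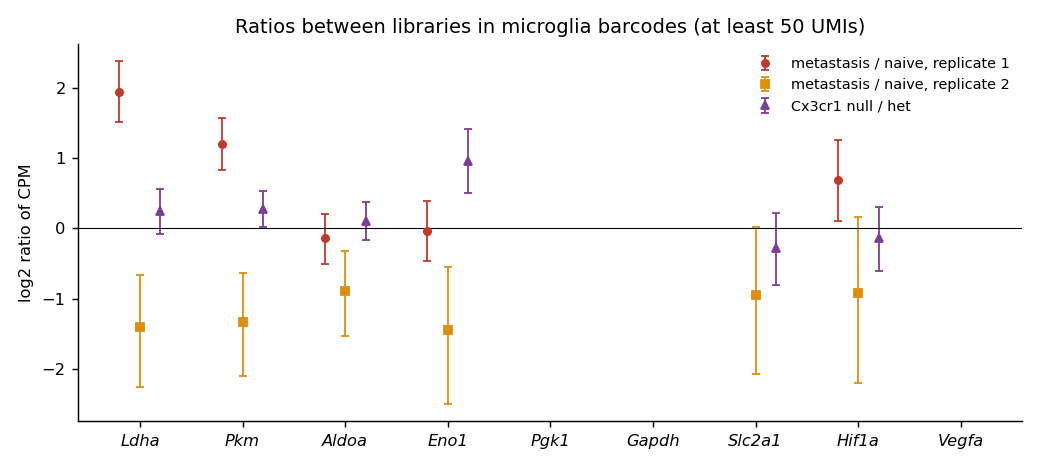
Log2 ratio of CPM between microglia of pairs of libraries, metastasis over naive within each replicate and Cx3cr1 null over heterozygous (het), for members with at least 50 UMIs over the pair; bars are exact 95% intervals of counting error. Ldha lies at 1.93 in replicate 1 and −1.40 in replicate 2, and Eno1 is the member farthest from 0 between the Cx3cr1 genotypes (0.96).

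Between the Cx3cr1 genotypes, the summed Eno1 level was higher in microglia of the null library than in those of the heterozygous library. The intervals of Ldha, Aldoa, Hif1a and Slc2a1 held equality. With 1 library per genotype there is no test and no replicate check. Eno1 stood at 149 CPM (119 to 185) in the null library and at 76.8 CPM (60.9 to 95.6) in the heterozygous library, a log2 ratio of 0.96 (0.50 to 1.42). Pkm stood at 366 CPM in the null library and 302 CPM in the heterozygous library, at 0.27 (0.01 to 0.53). These were the 2 of 6 members with an interval above equality, where 9.77% of 5443 genes had one above and 11.8% one below. The top 3 microglia barcodes held 36.5% of 85 Eno1 UMIs in the null library, against 16.25% of 80 in the heterozygous library. For Pkm they held 30.3% and 17.1%. At least 1 Eno1 UMI was found in 26.4% of microglia barcodes of the null library and 25.2% in the heterozygous library. For Pkm these shares were 48.6% and 58.4%. The counting intervals do not cover this spread, so neither ratio shows a difference across the class. Ldha stood at 0.25 (−0.08 to 0.57), Aldoa at 0.10 (−0.17 to 0.37), Hif1a at −0.14 (−0.60 to 0.31) and Slc2a1 at −0.28 (−0.81 to 0.22). Slc2a1 lay below equality at −0.87 (−1.28 to −0.47) with barcodes of up to 25% mitochondrial UMIs and at −1.43 (−2.25 to −0.69) with a stricter class rule. Endothelial markers were Cldn5, Flt1, Pecam1, Ly6c1 and Itm2a. At the 10% limit, in microglia barcodes with fewer than 3 of their UMIs, Slc2a1 stood at 51.7 CPM in the null library, against 39.8 CPM in the heterozygous library. No interval was computed for this split, and it was not run with the 25% limit or the stricter rule, so it does not settle a direction. Eno1 lay above equality in both alternatives, at 0.65 (0.29 to 1.00) and 0.92 (0.31 to 1.52). With the 25% limit, Pkm held equality, at 0.12 (−0.08 to 0.31), and Hif1a lay below it, at −0.38 (−0.70 to −0.06). Pgk1, with 12 UMIs in the null library and 9 in the heterozygous library, stood at 1.29 (−0.08 to 2.71). Of 14 further hypoxia genes, 7 lay below equality and 1 above, with a median log2 ratio of −0.63, against −0.05 for all genes. Ddit4, which encodes an inhibitor of mTORC1 signalling, stood at −1.38 (−2.23 to −0.61), Ndrg1, a stress-induced gene, at −1.10 (−2.06 to −0.23), and Arnt, the constitutive partner of Hif1a, at −0.98 (−1.99 to −0.07). Mif at 0.53 (0.16 to 0.91), Gpi1 at 0.47 (0.05 to 0.88) and Ldhb at 0.44 (0.20 to 0.69) lay above. The median of the further hypoxia genes lay nearer equality in the alternatives. With the 25% limit, 6 of 20 lay below equality and 0 above, with a median of −0.34. With all deposited barcodes, 9 of 20 lay below and 1 above, with a median of −0.32. With the stricter class rule, 3 of 9 lay below and 0 above, with a median of −0.52. Neutrophil and monocyte genes stood at 2733 CPM in microglia of the null library and 555 CPM in those of the heterozygous library, and their part in these ratios was not tested.

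Slc2a1 was the member whose class difference passed a test across libraries. It stood at 1069 CPM in the other barcodes of the library labelled naive 2, against 125 CPM in its microglia. In the heterozygous library it stood at 494 CPM in the other barcodes, against 103 CPM in microglia. Of the Slc2a1 UMIs in the other barcodes of the heterozygous library, 20 of 22 lay in 1 of 19 barcodes. In those of the library labelled naive 2, 27 of 67 Slc2a1 UMIs lay in 1 of 23 barcodes, and the top 3 held 79.1%. In metastasis 1 it stood at 55.1 CPM in the other barcodes, against 36.5 CPM in microglia, and in naive 1 it had 0 UMIs in 13 other barcodes, where the exact interval reaches 339.6 CPM, against 19.7 CPM in microglia. In the 4 libraries with at least 10 barcodes of both classes, edgeR with the library as a block called 3.32% of 6773 genes, 1.59% higher and 1.73% lower in the other barcodes. Slc2a1 rose by a log2 change of 1.99 (SE 0.35, edgeR adjusted p = 3.09e-06) and was the 1 member called of 8 tested. All 8 members had a log2 change above 0, with a median of 0.49, against −0.09 for all genes tested. Vegfa had 1.47 (SE 0.62, edgeR adjusted p = 0.252), Pgk1 0.89 (SE 0.57, edgeR adjusted p = 0.660) and Ldha 0.52 (SE 0.32, edgeR adjusted p = 0.638). The call for Slc2a1 was lost without the library labelled naive 2, where the log2 change was 1.28 (edgeR adjusted p = 0.450) and 37 genes were called, and without the library block (edgeR adjusted p = 0.318). Over all alternatives the log2 change lay between 0.94 with all deposited barcodes and 2.49 without the library labelled metastasis 1, and the edgeR or DESeq2 adjusted p between 7.36e-08 and 0.450. The class of other barcodes was mixed: choroid plexus and ependymal genes reached 30934 CPM in that of naive 1, and mural genes 5951 CPM in that of the heterozygous library.

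Of the further pathway genes, 2 of 17 glycolysis genes were called lower and 2 of 20 hypoxia genes higher in the other barcodes. Ndrg1 rose by 2.39 (SE 0.36, edgeR adjusted p = 8.14e-09). It stood at 495 CPM in the other barcodes of the library labelled naive 2, against 30.7 CPM in microglia, and at 561 CPM in those of the heterozygous library, against 52.8 CPM in microglia. Epas1, which encodes the HIF-2 subunit found in endothelium, rose by 2.63 (SE 0.62, edgeR adjusted p = 0.00169), with 16 of its UMIs in the other barcodes of the library labelled naive 2. Ldhb fell by 1.32 (SE 0.35, edgeR adjusted p = 0.00636), and Slc2a5, a fructose transporter of microglia, fell by 2.08 (SE 0.65, edgeR adjusted p = 0.0443). Both glycolysis calls were lost with DESeq2 (adjusted p = 0.0821 for Ldhb and 0.193 for Slc2a5), without the library labelled metastasis 1, without the library labelled naive 2 and without the library block. Over all alternatives the adjusted p of Ldhb lay between 0.000763 and 0.310 and that of Slc2a5 between 0.00156 and 0.733. Without the library labelled naive 2, Epas1 did not pass the low-count filter and Ndrg1 was called (edgeR adjusted p = 0.0276).

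Endothelial markers moved with Slc2a1 in the null, heterozygous and naive 2 libraries. The 5 markers Cldn5, Flt1, Pecam1, Ly6c1 and Itm2a, all detected, summed to 5547 CPM in the other barcodes of the null library, 2582 CPM in those of the heterozygous library and 6241 CPM in those of the library labelled naive 2, and to 49.6 CPM in those of metastasis 1. In the other barcodes of naive 1 and of metastasis 2, all 5 were at 0. Barcodes with at least 3 UMIs of these markers held 11 of 12 Slc2a1 UMIs in the other barcodes of the null library, 22 of 22 in the heterozygous library and 64 of 67 in the library labelled naive 2. In the last, Slc2a1 stood at 1840 CPM in 10 such barcodes, against 108 CPM in the remaining barcodes of the class. The same held in part for microglia: 21 of 48 Slc2a1 UMIs in the null library, 71 of 107 in the heterozygous library and 31 of 69 in the library labelled naive 2 lay in the 6, 18 and 8 microglia barcodes with such UMIs. Outside those barcodes, Slc2a1 stood at 51.7 CPM in microglia of the null library, 39.8 CPM in those of the heterozygous library and 77.9 CPM in those of the library labelled naive 2. The endothelial sum in microglia was 575 CPM in the null library, 403 CPM in the heterozygous library and 619 CPM in the library labelled naive 2, against 21.5, 58.1 and 10.5 CPM in metastasis 1, metastasis 2 and naive 1. In metastasis 1, no Rhox5-positive barcode, macrophage or microglia barcode had 3 endothelial UMIs, so the Slc2a1 levels of 67.3, 65.2 and 36.5 CPM in those classes came from barcodes without them. Among the other barcodes of metastasis 1, 2 had such UMIs and held 6 of 50 Slc2a1 UMIs. Slc2a1 stood at 467 CPM in those 2 and at 49.2 CPM in the rest. The 1 such microglia barcode of metastasis 2 held 0 of 10 Slc2a1 UMIs, with 69.1 CPM in the rest.

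**Figure D5:**
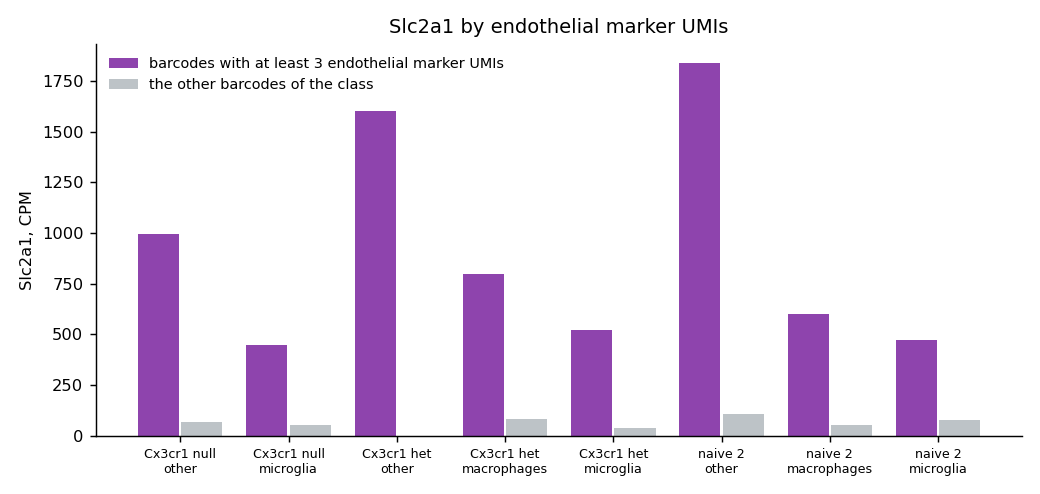
Level of Slc2a1 in CPM of the summed UMIs, in barcodes with at least 3 endothelial marker UMIs and in the remaining barcodes of the same class, for the Cx3cr1 null, Cx3cr1 heterozygous (het) and naive 2 libraries as labelled. In the other barcodes of naive 2 it reaches 1840 CPM where endothelial UMIs are present, against 108 CPM in the rest.

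Macrophages outside metastasis 1 were few, at 3 in the null library, 5 in the heterozygous library, 2 in naive 1, 7 in naive 2 and 0 in metastasis 2, so a test against microglia across libraries was not made at the planned minimum of 10 barcodes. With a minimum of 5 barcodes, 3 libraries entered, and edgeR called 2.67% of 6335 genes (1.63% higher and 1.04% lower in macrophages) and 1 of 7 members, Slc2a1, with a log2 change of 1.54 (SE 0.35, edgeR adjusted p = 0.0315). In the 7 macrophage barcodes of naive 2, 30 of 32 Slc2a1 UMIs lay in 1 barcode with endothelial markers. In the 5 of the heterozygous library, 17 of 19 lay in 1 of 3 such barcodes. Ldha at 0.73 (SE 0.30, edgeR adjusted p = 0.259), Pkm at 0.71 (SE 0.31, edgeR adjusted p = 0.303) and Aldoa at 0.78 (SE 0.30, edgeR adjusted p = 0.218) did not pass. In levels, Ldha stood at 433 CPM (265 to 669) in macrophages of the heterozygous library, against 199 CPM in microglia, and at 397 CPM (277 to 552) in those of naive 2, against 273 CPM in microglia. Aldoa stood at 693 CPM in macrophages of the heterozygous library, against 298 CPM in microglia, and at 488 CPM in those of naive 2, against 336 CPM in microglia.

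Gapdh, although often used as a reference gene, was read at 11 to 44 UMIs per library, and its level in microglia ranged between 5.76 and 19.7 CPM. The last 300 bases of its transcript matched 120 other annotated genes at 95% identity or more over at least 100 bases, those of Eno1 matched 1, and those of the other 7 members matched 0. How reads with several matches were counted is not given in the sources used here, so Gapdh is uncertain. Hif1a varied little between the classes of metastasis 1, at 156 CPM (128 to 188) in Rhox5-positive barcodes, 123 CPM in macrophages, 127 CPM in the other barcodes and 114 CPM (85.3 to 149) in microglia, and its class ratios held equality, except that Rhox5-positive barcodes over microglia stood at 0.52 (0.03 to 1.03) with barcodes of up to 25% mitochondrial UMIs. Vegfa stood at 29.5 CPM in Rhox5-positive barcodes, 43.4 CPM in macrophages, 48.5 CPM in the other barcodes and 25.8 CPM in microglia of that library, with overlapping intervals.

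Over 11 class-by-library profiles with at least 10 barcodes and 20000 UMIs, Ldha, Pkm and Hif1a followed the mean of the other members most closely, with Pearson correlations of log2(CPM + 10) of 0.90, 0.89 and 0.84, and of 0.85, 0.88 and 0.87 with a pseudocount of 50 CPM, which changes their order. Vegfa stood at 0.77 with the pseudocount of 10 CPM. Pgk1 stood at 0.69, Aldoa at 0.66 and Eno1 at 0.53, while Slc2a1 at 0.14 and Gapdh at −0.38 did not follow it. The profiles share libraries and depth, so these values describe them only. Of 3879 other genes with a mean of at least 50 CPM, those most like the mean of the members were Ccdc127 at 0.97, Eif3m at 0.97, Sf3b5 at 0.96, Uaca at 0.96 and Slc1a5 at 0.96.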

How the data were processed

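Per the labels, Cd11b-enriched brain cells were profiled by Drop-seq. The deposited values are raw counts of UMIs per gene and barcode, 1 table of 1000 barcodes for each of 6 libraries. Per the submitters' processing notes, STAR, Seurat and the mm10 build were used. How reads with several matches were counted is not given in the sources used here.

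Barcodes with at least 400 genes and under 10% mitochondrial UMIs were kept, and the 5% with the highest Scrublet doublet scores in each library were left out (scanpy 1.11.5, Python 3.11.15). Classes were set by at least 3 marker UMIs, with thresholds set after the marker distributions were seen. The members and the gene lists were chosen with earlier results of these data known. Counts were summed per library and class, since cells are not replicates, and expressed as CPM with exact 95% Poisson intervals. Ratios between 2 sums have exact conditional (Clopper-Pearson) intervals. Intervals cover counting error only. Where libraries allowed, summed counts were tested in R 4.3.3 by edgeR 4.0.16, with its quasi-likelihood fit (TMM, filterByExpr, Benjamini-Hochberg over all genes tested, adjusted p under 0.05), with DESeq2 1.42.0 as an alternative. The scripts were tested on simulated data. Each unmodified library came from its own brain, and those of the Cx3cr1 mice from 2 pooled brains.

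Named genes were the 9 members, up to 3 further pathway genes per direction and comparison, the 5 genes most like the members' mean, and marker genes. Alternatives covered normalization, filters, classes, depth, single libraries and blocks. Same-numbered deviations from the group means had a correlation of −0.35 over 6842 genes in microglia. With 2 libraries per group and the labels of replicate 2 in doubt, this value cannot show whether replicate numbers pair the libraries. The main fit had no replicate block, although the replicate number also marks the sequencer, and a fit with the block was an alternative.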

Additional observations from a re-analysis of the deposited data

How the results depend on the processing

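Among microglia of metastasis and naive libraries, no member was called under any alternative run. The count of genes called was 0 in edgeR and 42 without the low-count filter, and 0 to 21 with 1 library left out. Over all kept barcodes it was 0, 100 without that filter, 1 with DESeq2, and 0 to 39 with 1 library left out. The replicate block called 0 genes in both and changed no call, and a crossed pairing of the replicate numbers, added after the data were seen, called 2 genes in each.

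Directions of uncalled members in microglia were not stable. With 1 library left out, the log2 change of Hif1a ranged over −0.74 to 0.29, of Ldha over −0.79 to 1.14, of Pgk1 over −2.32 to 0.033, of Pkm over −0.88 to 0.47 and of Slc2a1 over −1.33 to 1.11. Single reversals were Hif1a at 0.059 without naive 2, 0.29 without metastasis 2, 0.032 with a 25% mitochondrial limit, 0.083 with all deposited barcodes and 0.028 with the stricter class rule; Ldha at −0.33 without naive 1 and −0.79 without metastasis 1; Pgk1 at 0.033 without naive 1 and 0.012 without metastasis 2; Pkm at 0.47 without naive 2, 0.43 without metastasis 2 and 0.043 with all deposited barcodes; and Slc2a1 at 1.11 without naive 2.

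At matched depth in metastasis 1, added after the data were seen, the members with an interval above equality numbered 2 of 4 for Rhox5-positive barcodes over microglia (215 of 947 genes; Slc2a1 at −0.42), 1 of 4 for Rhox5-positive barcodes over macrophages (192 of 1073 genes; Aldoa at −0.10, Pkm at −0.35), 2 of 4 for macrophages over microglia (292 of 1749 genes; Ldha at −0.025) and 1 of 4 for the other barcodes over microglia (237 of 1793 genes). The stricter class rule gave 1 of 4 for macrophages (208 of 1025 genes) and 2 of 8 for the other barcodes (521 of 6200 genes). Between the null and heterozygous libraries, 1 of 6 members lay above and 2 below equality with the 25% limit (644 above and 978 below of 7465 genes) and with all deposited barcodes (758 and 1158 of 8061 genes). With the stricter rule 3 lay above and 1 below (425 and 434 of 3985 genes).

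Between the other barcodes and microglia, 225 genes were called, 129 with DESeq2, 345 with the 25% limit, 4 with no library block, and 37 to 221 with 1 library left out (142 without naive 1, 71 without the heterozygous library). Members called numbered 0 without naive 2 and with no library block. Eno1 lay at −0.045 without the low-count filter and ranged over −0.28 to 0.26 with 1 library left out, the lowest without metastasis 1. With a pseudocount of 50 CPM, 3 of the 5 genes most like the members' mean were shared. The cause of these changes was not tested. The normalization, filter, DESeq2 and single-library alternatives were not run for macrophages or Rhox5-positive barcodes against microglia, since 1 library had at least 10 barcodes of both classes. Depth limits Gapdh, Vegfa and Pgk1 most, with under 50 UMIs in microglia of every library.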
